A study of Mus musculus with 3 samples.

Results

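Foxi1, a forkhead transcription factor, was described together with 9 genes of the cells in which it is best known: the ionocyte factor Ascl3, the chloride channel Cftr and 7 subunits of the vacuolar proton pump (V-ATPase), namely Atp6v1a, Atp6v1b1, Atp6v1b2, Atp6v1c2, Atp6v0a1, Atp6v0a4 and Atp6v0d1. These 10 genes are among 36799 genes and transcripts on the array. Foxi1 was selected on its measured log2 ratio in the same comparison, RL over control, in which it was low in every tumor. Its values are therefore given as a description with no test. The other 9 were chosen by their known biology, with the results of this comparison already known. RL is RANKL, the ligand of the receptor RANK. The cultures were primary tumor cells of MMTV-PyMT mice, in which the mouse mammary tumor virus promoter drives the polyoma middle T antigen mainly in mammary epithelium, and came from 3 mice (tumors 1, 2 and 3, coded 811a, 812a and 815a). From each tumor, RNA of 1 culture kept with RL for 24 h and of 1 control culture without RL was labeled with different dyes and hybridized to 1 Agilent array, so that a ratio within an array compares the cultures of a tumor. The medium of both cultures was DMEM F12 with serum, antibiotics, cholera toxin, insulin and EGF. The paper's methods describe acinar cultures plated on growth factor-reduced Matrigel, with RL added 24 h after plating. For the cultures given RL they do not state the RANK genotype of the tumors. The labels give the dose of RL as 1000 µg/mL and the methods give a lower one. RL was in Cy3 on the arrays of tumors 1 and 3 and in Cy5 on that of tumor 2. In a channel, 54.6% to 56.2% of the probes were well above background.

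Ionocytes of the airway, intercalated cells of the kidney and related cells of the inner ear and epididymis are scattered epithelial cells rich in mitochondria and ion transporters. Foxi1 is required for their formation, and in the kidney, inner ear and epididymis it is known to activate the genes of V-ATPase subunits that these cells use in place of the common ones. The V-ATPase is a rotary pump with a cytosolic V1 sector that hydrolyses ATP and a membrane V0 sector that carries protons. Most cells use it to acidify lysosomes and other vesicles, whereas intercalated cells also place it in the plasma membrane to secrete acid.

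The RefSeq table of promoters, on build GRCm38.p6, held 300 bases around the transcript start of 9 of the 10 genes. These were searched on both strands for the forkhead core TGTTTAC and for TCACGTG, the core of the CLEAR element known from lysosomal genes. The promoters of 4 genes are shown because they belong to the factor, to the subunits of the B and a families typical of intercalated cells (Atp6v1b1 and Atp6v0a4) and to a subunit found in every V-ATPase (Atp6v1a). They lie at chr11:34208040-34208339 (minus strand), chr6:83742767-83743066 (plus), chr6:38124537-38124836 (minus) and chr16:44139210-44139509 (minus), and capitals mark the matches.
Foxi1: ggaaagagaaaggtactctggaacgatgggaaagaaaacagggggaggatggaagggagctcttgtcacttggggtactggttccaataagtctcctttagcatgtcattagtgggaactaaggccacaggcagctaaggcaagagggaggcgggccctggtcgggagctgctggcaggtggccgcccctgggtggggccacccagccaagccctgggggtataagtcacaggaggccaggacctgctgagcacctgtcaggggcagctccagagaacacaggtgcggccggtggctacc
Atp6v1b1: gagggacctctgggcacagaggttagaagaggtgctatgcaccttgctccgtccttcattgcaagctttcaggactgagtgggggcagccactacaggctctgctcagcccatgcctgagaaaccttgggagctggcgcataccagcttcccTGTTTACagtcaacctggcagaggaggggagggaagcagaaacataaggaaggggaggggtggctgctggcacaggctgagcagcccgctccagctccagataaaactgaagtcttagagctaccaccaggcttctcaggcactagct
Atp6v0a4: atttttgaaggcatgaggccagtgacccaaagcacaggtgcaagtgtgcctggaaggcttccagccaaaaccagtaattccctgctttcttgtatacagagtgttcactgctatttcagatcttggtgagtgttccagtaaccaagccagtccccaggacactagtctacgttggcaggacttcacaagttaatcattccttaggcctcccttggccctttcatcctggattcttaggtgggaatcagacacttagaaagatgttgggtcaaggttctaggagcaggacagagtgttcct
Atp6v1a: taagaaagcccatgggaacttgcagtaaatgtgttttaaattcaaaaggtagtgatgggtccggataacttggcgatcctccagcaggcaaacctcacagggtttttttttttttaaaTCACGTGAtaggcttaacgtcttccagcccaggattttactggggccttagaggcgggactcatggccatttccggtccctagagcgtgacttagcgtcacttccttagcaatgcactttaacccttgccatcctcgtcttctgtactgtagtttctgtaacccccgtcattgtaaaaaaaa
The forkhead core was found in 1 of the 9 promoters, that of Atp6v1b1, beginning at −98 from the start, and in 3.55% of all 27025 promoters. The CLEAR core was found in 2 of the 9, those of Atp6v1a and Atp6v0d1, and in 3.84% of all promoters. In both genes the match was TCACGTGA, which holds the core on either strand. A match is a description of these letters and not of a bound site.

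Foxi1 was measured by 1 probe, a single spot, for transcript NM_023907. Its median spot intensity in the control cultures of tumors 1, 2 and 3 was 29586, 3101 and 3854.5, over local backgrounds of 71, 33 and 72. In the RL cultures it was 8527.5, 3458 and 1306, over 30, 70 and 34. Cy5 spots were the brighter on every array, so the channels were compared after normalization. The normalized log2 intensity was 14.40, 12.12 and 11.43 in the control cultures and 13.66, 11.31 and 10.71 in the RL cultures. All channels were well above background and none was saturated. In tumors 1, 2 and 3 the log2 ratio of RL over control came to −0.74, −0.81 and −0.73. The mean was −0.76 (n = 3 tumors, SE 0.07, which here and below is limma's moderated SE and draws on the spread of all genes), a level 0.591 times that of the control. These are the values that chose the gene. With arrays centered on their median in place of loess normalization, the ratios were −1.46, −0.22 and −1.19. The likeness and the order of the tumors thus depended on the normalization. Each tumor gave 1 culture per condition, so RL and any other difference between the paired cultures cannot be told apart, and neither can fewer cells with Foxi1 and less Foxi1 RNA per cell.

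**Figure D1:**
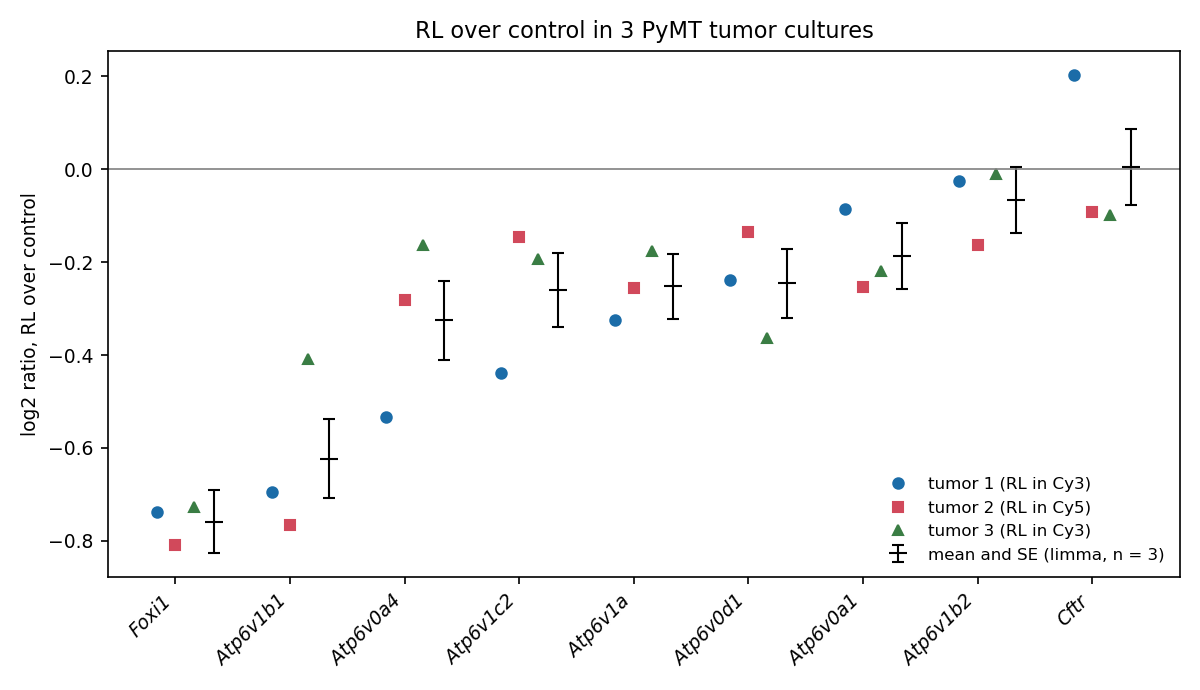
Log2 ratio of RL over control (y axis) for the 9 genes with a probe above background (x axis), in each tumor (colored symbols) and as mean over 3 tumors with limma's moderated SE (black). Foxi1 lay between −0.81 and −0.73, Atp6v1b1 between −0.77 and −0.41, and Cftr on both sides of 0.

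Atp6v1b1 encodes the B1 subunit of the V1 sector, the form of the catalytic head's B subunit found in intercalated cells, whose loss causes renal tubular acidosis with deafness in people. Its normalized log2 intensity was 11.45, 9.89 and 8.59 in the control cultures of tumors 1, 2 and 3 and 10.75, 9.13 and 8.18 in the RL cultures. The RL culture was the lower one in every tumor, with log2 ratios of −0.69, −0.77 and −0.41. Their mean was −0.62 (SE 0.09, 95% interval −0.82 to −0.43), 0.649 times the control, and the adjusted p from limma over all genes was 0.0918, above the threshold of 0.05. With a dye term beside the RL term the mean was −0.66. Tumor 2 was the only one with RL in Cy5, so this fit passes through its ratio exactly. The spread then comes from tumors 1 and 3 and from all genes, with 1 degree of freedom fewer. Calls with a dye term are therefore given only as counts below, from which nothing is read. Over 18 alternative settings Atp6v1b1 passed the threshold in 5 and not in the others. These 5 include the dye term and the fit without tumor 2, which leaves arrays of 1 dye order, and nothing is read from either. The range of Atp6v1b1 over the tumors overlapped that of Foxi1.

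Atp6v0a4 encodes the a4 subunit of the V0 sector, the partner of B1 in the plasma membrane pump of intercalated cells. Its log2 intensity was 10.78, 12.57 and 9.35 in the control cultures and 10.24, 12.29 and 9.19 in the RL cultures of tumors 1, 2 and 3. The log2 ratios were −0.53, −0.28 and −0.16, with a mean of −0.33 (SE 0.09) and an adjusted p of 0.417 from limma. With a dye term the mean was −0.31. Over the alternatives Atp6v0a4 passed the threshold only with a dye term and without tumor 2, which leaves arrays of 1 dye order. Nothing is read from either setting. Atp6v1c2, the C2 subunit of the V1 stalk, is a form made in few tissues, kidney and lung among them. Its log2 intensity was 12.75, 13.26 and 12.81 in the control and 12.31, 13.11 and 12.62 in the RL cultures. Its log2 ratios were −0.44, −0.15 and −0.19, with a mean of −0.26 (SE 0.08, adjusted p = 0.512 from limma). Both genes thus had their ratio farthest from 0 in tumor 1.

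The other 4 subunits are part of the pump in most cells. Atp6v1a, the catalytic A subunit, had log2 ratios of −0.32, −0.25 and −0.18 in tumors 1, 2 and 3, with a mean of −0.25 (SE 0.07). It was the only one of the 10 genes with more than 1 probe, and its dimmer probe gave −0.13, −0.28 and 0.26, so the probes differed in sign in tumor 3. Atp6v0d1, the d1 subunit that joins the sectors, had ratios of −0.24, −0.13 and −0.36, with a mean of −0.25 (SE 0.07). Atp6v0a1, the a1 subunit, had ratios of −0.09, −0.25 and −0.22, with a mean of −0.19 (SE 0.07). Limma's adjusted p was 0.462 for Atp6v1a, 0.512 for Atp6v0d1 and 0.655 for Atp6v0a1. Atp6v1b2, the B2 subunit that takes the place of B1 in most tissues, had ratios of −0.03, −0.16 and −0.01, with a mean of −0.07 (SE 0.07, 95% interval −0.23 to 0.09) and an adjusted p of 0.898. The ranges of Atp6v0a4, Atp6v1c2, Atp6v1a, Atp6v0d1 and Atp6v0a1 overlapped one another, so their order is within the spread between tumors. The B subunits did not overlap with loess: all 3 ratios of Atp6v1b1 lay below all 3 of Atp6v1b2, a difference that was not tested. With arrays centered on their median instead, the ranges overlapped. Atp6v1b1 then had −1.24, −0.27 and −0.79 and Atp6v1b2 −0.45, 0.27 and −0.43.

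**Figure D2:**
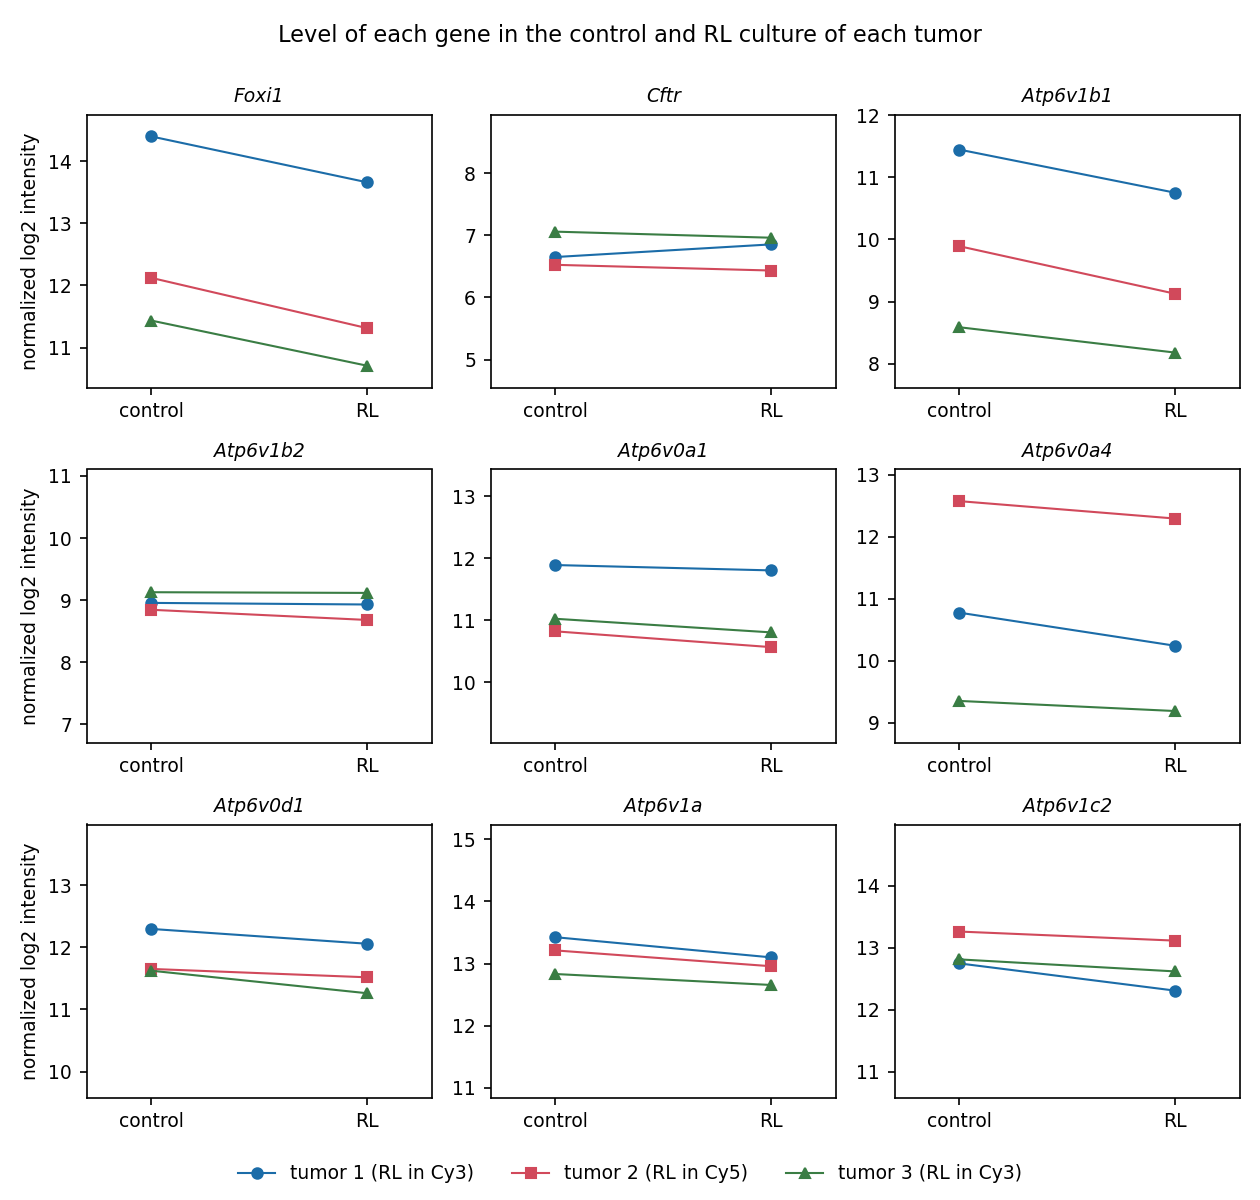
Normalized log2 intensity (y axis, each panel spanning the same number of units around its own middle) in the control and RL culture (x axis) of each tumor, joined by a line. Foxi1, Atp6v1b1, Atp6v1a and Atp6v0d1 were highest in tumor 1 and lowest in tumor 3 in both cultures, and Atp6v0a4 was highest in tumor 2. With the cultures averaged, 17.6% of all genes were highest in tumor 1 and lowest in tumor 3.

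Cftr, the chloride channel that airway ionocytes carry in abundance, was dim. Its median spot intensity was 117, 47 and 162 in the control cultures of tumors 1, 2 and 3, over local backgrounds of 70, 32 and 70, and all 6 channels were well above background. The tumors' log2 ratios, 0.20, −0.09 and −0.10, lay on both sides of 0. The mean was 0.005 (SE 0.08, 95% interval −0.18 to 0.19, adjusted p = 0.992 from limma), and it was −0.02 with a dye term. Ascl3, a basic helix-loop-helix factor of ionocytes, was well above background in 1 of 6 channels, that of the RL culture of tumor 1, at a median spot intensity of 35.5 over a local background of 35. It did not pass the filter, and no ratio is given for it.

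Of the 10 genes, 9 passed the filter on dim probes, all of them in 6 of 6 channels. At limma's adjusted p of 0.05 the count was 0 of the other 8. Of all 21743 genes and transcripts tested, limma called 0.0230% lower (5) and 0.0276% in either direction (6). The rank product called 1 of the 8 lower, Atp6v1b1, where it called 45 of all 21721 genes lower and 75 in either direction. At an unadjusted p under 0.05, 6 of the 8 were lower, Atp6v1b2 and Cftr being the others, where 3.58% of all genes were lower. In all 3 tumors, 7 of the 8 had a ratio below 0, against 13.6% of the 21721 genes with 3 values, and this count was 1 (Atp6v1b1), against 3.42% of all genes, when arrays were centered on their median in place of loess. That setting gave medians of all genes of −0.41, 0.43 and −0.35 in tumors 1, 2 and 3 and a shift of −0.11 in the mean. With loess, the ratios of all genes still had a Pearson's r of 0.453 between tumors 1 and 3, which share a dye order, and of −0.112 and −0.108 between these and tumor 2, so dye order and tumor cannot be told apart there. With a dye term, 2 of the 8 were called lower by limma (Atp6v1b1 and Atp6v0a4), where 0.741% of all genes were. As the genes were chosen with this comparison known, nothing is read from these counts.

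The whole V-ATPase was described by a list of 23 subunit genes, of which 20 were tested. The median of their mean log2 ratios was −0.08, beside −0.002 over all genes, and with median centering −0.26 beside −0.11. In tumors 1, 2 and 3 the median over subunits was −0.11, −0.12 and −0.14. All counts in this paragraph include the subunits named at the start, which were chosen with this comparison known. By limma 0 of 20 passed the adjusted p of 0.05 and 7 were lower at an unadjusted p under 0.05 (3.58% of all genes). Outside the subunits named at the start, 1 of 13 was lower at that unadjusted p. The rank product called 1 subunit lower, Atp6v1b1, where it called 45 of all 21721 genes lower. In all 3 tumors, 11 of 20 subunits lay below 0 and 0 lay above, where 13.6% and 14.1% of all genes did. With median centering 1 subunit and 3.42% of all genes lay below 0. By sector, 5 of 11 V1 genes and 6 of 9 V0 genes were below 0 in every tumor, with medians of −0.07 and −0.08.

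Outside the 7 subunits named at the start, 13 subunit genes were tested, with a median of −0.06 and 4 below 0 in every tumor (13.6% of all genes). With median centering their median was −0.23, and the only subunit below 0 in every tumor was Atp6v1b1, 1 of the 7. Of the 13, Atp6v1e1, the E1 subunit of the V1 stalk, was lowest with loess. Its ratios were −0.28, −0.27 and −0.26, with a mean of −0.27 (SE 0.07, adjusted p = 0.393 from limma). Atp6v0c, the c subunit of the proton-carrying ring, had ratios of −0.10, −0.10 and −0.28, with a mean of −0.16. The highest was Atp6v1g2, with 0.11, −0.08 and 0.05. Atp6v0a2 and Tcirg1, which encode the a2 and a3 forms of the subunit of which Atp6v0a4 encodes a4, had means of −0.01 and −0.03. Atp6v1c1, the common form of the C subunit, had −0.09, 0.09 and −0.29 and a mean of −0.10. Of the forms restricted to few tissues, Atp6v1g3 was not well above background in any channel, Atp6v0d2 was in 3 of 6 and Atp6v1e2 in 4 of 6, and none passed the filter.

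**Figure D3:**
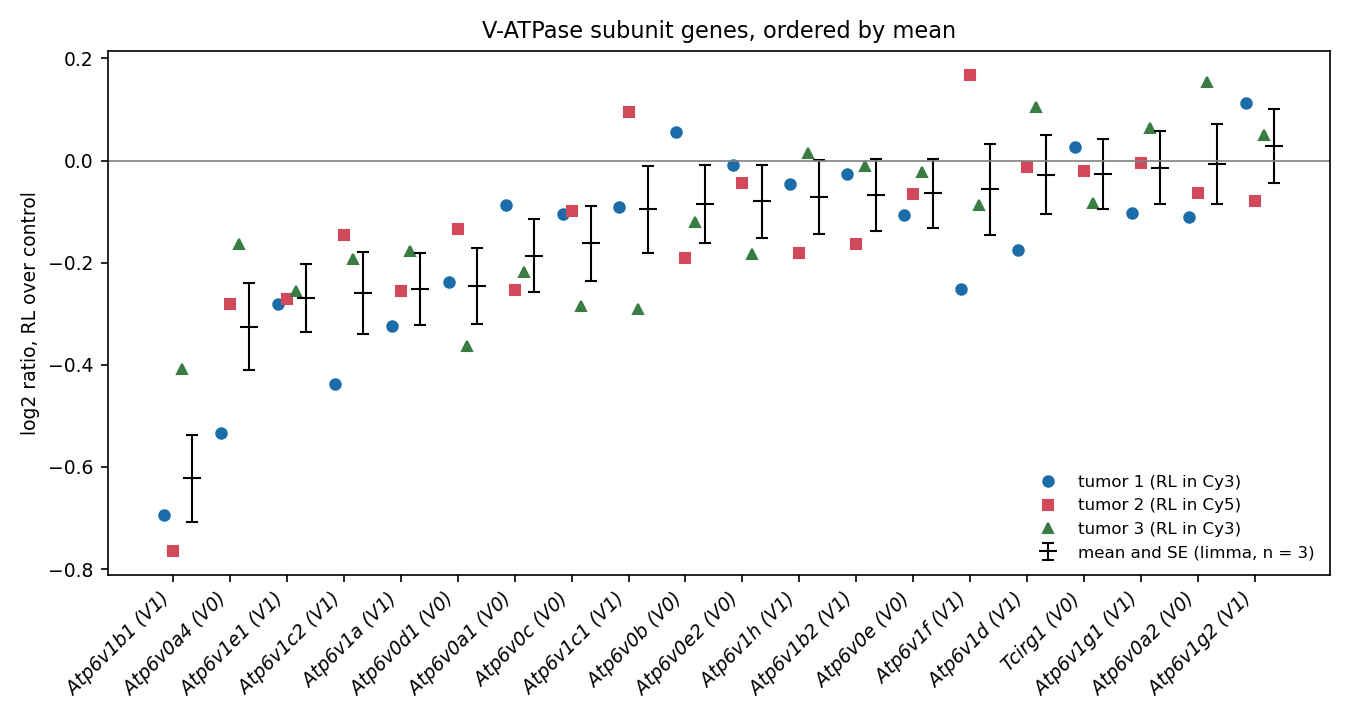
Log2 ratio of RL over control (y axis) of the 20 V-ATPase subunit genes tested (x axis, with their sector V1 or V0), ordered by their mean, in each tumor (colored symbols) and as mean over 3 tumors with limma's moderated SE (black). Atp6v1b1 and Atp6v0a4 had the lowest means, −0.62 and −0.33, and the median over the genes was −0.08.

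The name ionocyte was set against 10 marker genes. Of these, 5 were well above background in all 6 channels (Foxi1, Cftr, Atp6v1b1, Atp6v0a4 and Atp6v1c2). Ascl3, Atp6v0d2 and Hepacam2 were so in 1, 3 and 2 channels, and Atp6v1g3 and Stap1 in none. The genes are therefore called by their names and no ionocyte is assigned to these cultures. Of a longer list of 27 genes of ionocytes and intercalated cells, 11 were well above background in all 6 channels and 7 in none: Aqp6, Atp6v1g3, Bsnd, Hmx2, Insrr, Rhcg and Stap1. The anion exchangers Slc26a4 and Slc4a1, which mark the kinds of intercalated cell, were so in 2 and 4 channels. The 13 with a ratio had a median of −0.07. It was −0.18 with the processed signals, −0.20 with median centering and −0.004 without the filter, so its size depends on the processing. Besides Foxi1, 5 of the other 12 lay below 0 in all 3 tumors, against 13.6% of all genes. Among these 5 were Atp6v1b1, Atp6v0a4 and Atp6v1c2, which belong to the 10 genes described at the start. With median centering, Atp6v0a4 and Atp6v1c2 lay above 0 in tumor 2, at 0.31 and 0.52. Tfcp2l1, a factor of intercalated cells, had ratios of −0.40, −0.13 and −0.05, with a mean of −0.19 (SE 0.08, adjusted p = 0.703 from limma). Slc4a9, an exchanger of intercalated cells that depends on Foxi1 in kidney, had a mean of 0.02, with 0.08, −0.04 and 0.005. Car2, the cytosolic carbonic anhydrase of intercalated cells, had a mean of −0.04, and the highest mean of the list was that of the ammonia channel Rhbg, 0.19, with 0.42, 0.17 and −0.02.

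Foxi1 was compared with the other forkhead genes. Of 44 in the RefSeq table, 30 were tested. The median of the 30, Foxi1 among them, was 0.02, and with median centering it had the opposite sign. Its paralogs Foxi2 and Foxi3, each well above background in 5 of 6 channels, had means of 0.01 and −0.03, which were 0.70 and −0.21 with the scanner software's processed signals. The highest mean was that of Foxa2, a factor of endoderm and of glandular epithelia, with ratios of 0.73, 0.42 and 0.55. Its mean was 0.56 (SE 0.08) with an adjusted p of 0.0918 from limma, and 0.53 with a dye term.

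The 5 genes with ratios nearest to those of Foxi1, by root mean square difference over the 3 arrays among 14033 genes, were Lrg1, Csn1s1, Atp6v1b1, Emid1 and Them5. Lrg1, a secreted glycoprotein, had ratios of −0.84, −0.72 and −0.70 and lay 0.0800 from Foxi1. Csn1s1, a casein, had −0.85, −0.53 and −0.79 at a distance of 0.176. Atp6v1b1 followed at 0.188, Emid1 at 0.198 and Them5, a mitochondrial thioesterase, at 0.212. All of them were near because their ratios were low as well, so the measure rests on the comparison that chose Foxi1. Without tumor 2, none of these 5 was among the nearest 5, and without tumors 1 and 3 in turn it was 3 and 2 of them. It was also 2 with the processed signals, 3 without background correction and 3 at a normexp offset of 10.

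The level of Foxi1 also differed between the tumors, which the choice of the genes did not use. With the control and RL cultures of a tumor averaged, its log2 level in tumors 1, 2 and 3 was 14.03, 11.72 and 11.07, a range of 2.96 or 7.78-fold. This was 3.90 times the size of its mean log2 ratio with RL. Of 21721 genes, 0.525% had a wider range, and the median range was 0.27. Atp6v1b1 had the same order, 11.10, 9.51 and 8.38, with a range of 2.72, exceeded by 0.723% of genes. Atp6v1a and Atp6v0d1 also had this order, and 17.6% of all genes were highest in tumor 1 and lowest in tumor 3. Atp6v0a4 had another order, 10.51, 12.43 and 9.27, with the highest level in tumor 2 and a range of 3.16, exceeded by 0.387%. The remaining 6 genes had ranges between 0.36 (Atp6v1b2) and 1.15 (Atp6v0a1). Among these genes the wide ranges were thus those of Foxi1 and of the subunit forms B1 and a4, while Atp6v1c2 had 0.66. They were not particular to them. The 5 genes with ratios nearest to Foxi1 were all highest in tumor 1 and lowest in tumor 3, Lrg1 with levels of 14.09, 11.82 and 11.01. Car2 had a range of 3.54 in another order, 13.02, 9.48 and 11.57. With 3 tumors and no repeat cultures per condition, differences between tumors were not tested.

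**Figure D4:**
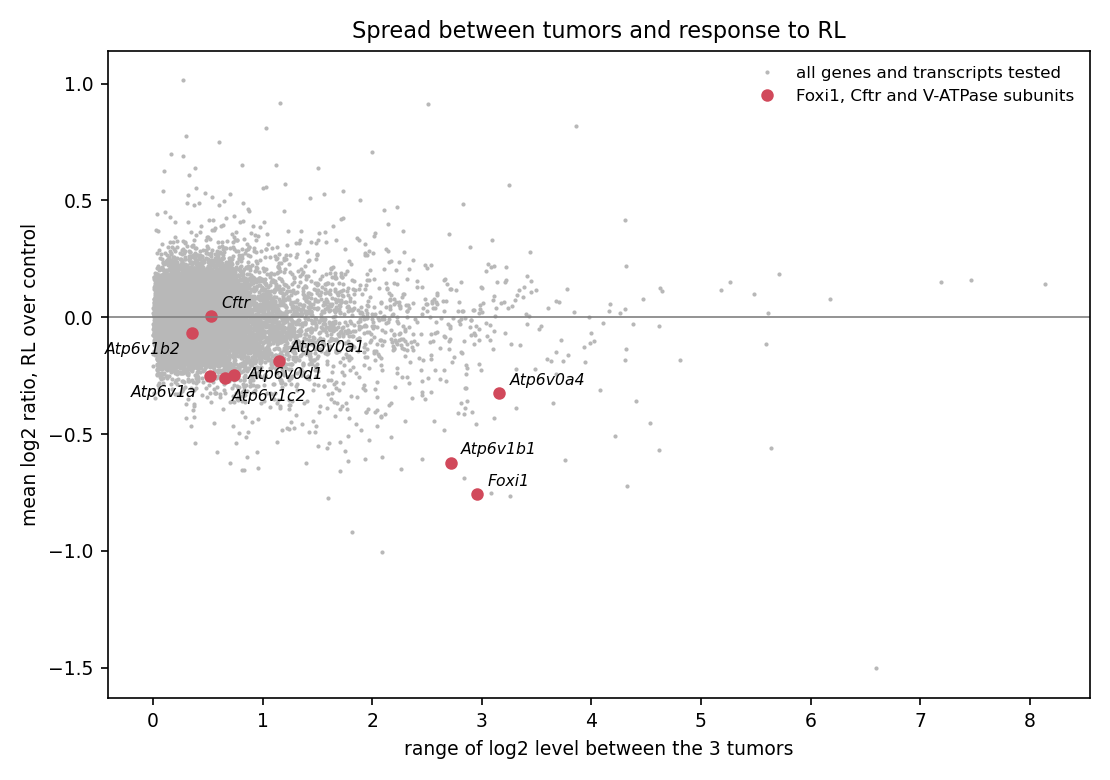
Range of the log2 level between the 3 tumors, control and RL cultures averaged (x axis), against the mean log2 ratio of RL over control (y axis), for every gene measured in each tumor (grey) and for 9 of the genes described (red). Foxi1, Atp6v1b1 and Atp6v0a4 lay at ranges of 2.96, 2.72 and 3.16, where the median gene had 0.27.

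Markers of epithelial cell types also differed between the tumors. Over the 6 milk genes tested, which mark alveolar cells, the summed level in the control cultures of tumors 1, 2 and 3 was 175248, 25499 and 18294, and in the RL cultures 80451, 21816 and 12413, in the order of Foxi1. Lalba, at a log2 level of 16.10, 11.71 and 9.50, was the brightest of them in tumor 1, and Btn1a1, at 13.80, 13.47 and 13.58, was the brightest in tumors 2 and 3 and had another order. The ratios of Btn1a1 were −0.48, 0.51 and −0.49, with the sign following the dye order, and its mean was 0.01 with a dye term. The median log2 ratio of the list was −0.59, with 5 of 6 below 0 in every tumor (13.6% of all genes) and 3 called lower by limma (0.0230% of all genes), Lalba (−1.50), Wap (−1.01) and Csn1s1 (−0.72). None of the 3 was called with the processed signals, with median centering or without the pairing by tumor. The whole array had 1 call without tumor 1 and 2 without tumor 3, so not all 3 were called there. Wap and Csn1s1, at an adjusted p of 0.045 from limma, were also lost with the strict filter, without the filter and with the mean over probes. The 4 basal markers were all lowest in tumor 1. Their summed control levels of 33381, 70441 and 99310 were led by Krt14, as were those with RL, 34213, 64249 and 74870, while Krt5, Acta2 and Trp63 were highest in tumor 2, and their median ratio was −0.11. The 8 luminal markers summed to 312900, 199822 and 356414 in the controls and to 242489, 230341 and 255328 with RL, led by Krt18. Their median ratio was −0.09, with 0.12, −0.17 and −0.11 in the tumors, from −0.33 for Krt18 to 0.05 for Epcam. Krt18 had −0.73, 0.43 and −0.70, with the sign following the dye order, and its mean was −0.14 with a dye term. The summed levels moved with RL in the direction of Krt18, which in tumors 1 and 2 was opposite to the median. The part of these cell types in the values of Foxi1 and the pump genes was not tested.

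Markers of other cells were measured as well. The 6 fibroblast markers, led by Col1a1 and Col1a2, summed to 8967, 4007 and 17618 in the controls and 7360, 4333 and 16995 with RL, with median ratios of −0.30, 0.17 and −0.05 in tumors 1, 2 and 3. The 6 myeloid markers, led by Itgam, summed to 7318, 7025 and 8176 in the controls and 6775, 7667 and 7539 with RL. Their median was −0.002, with the lowest mean for Cd68 (−0.23). This median was 0.02 with a dye term and −0.16 with median centering. The myeloid marker Ptprc, at log2 levels of 6.26, 6.20 and 6.50 in tumors 1, 2 and 3, was well above background in 5 of 6 channels. Adgre1, at 6.37, 6.32 and 6.48, was as dim. Ascl3, which did not pass the filter, had a mean of 6.04 in the control cultures. No myeloid cells are therefore assigned to these cultures. Of 4 endothelial markers, Tek was not well above background in any channel and Cdh5 was in 2, and the 2 tested, Pecam1 and Kdr, had means of −0.11 and 0.10. Osteoclasts are made under RL and are rich in V-ATPase. Of 8 osteoclast genes, Calcr was not well above background in any channel and Dcstamp was in 3, and the 6 tested had a median of 0.02, from −0.30 for Ocstamp to 0.10 for Nfatc1, and with median centering the median had the opposite sign. Ocstamp had −0.36, −0.38 and −0.17 and an adjusted p of 0.39 from limma, and its mean was −0.32 with a dye term.

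The V-ATPase was also set beside the genes that act with it. Of 11 accessory and assembly genes, 10 were tested and 0 were called by limma, with 1 lower at an unadjusted p under 0.05 (3.58% of all genes) and a median of −0.05. They ranged from −0.21 for Rnasek to 0.14 for Vma21, which was −0.03 with median centering. Of 24 lysosome genes, all tested, 0 were called by limma and 1 was lower at an unadjusted p under 0.05 (Ctsd, the protease cathepsin D). Their median was −0.02. With median centering it was −0.21, where the median of the accessory genes was −0.17 and that of all genes −0.11. In every tumor 5 of the lysosome genes lay below 0 and 2 above (13.6% and 14.1% of all genes). They ranged from −0.27 for Ctsd to 0.16 for Mcoln1, a lysosomal calcium channel that was −0.009 with median centering. The rank product called none of either list at a proportion of false positives under 0.05.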

How the data were processed

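RNA of RL and control cultures of 3 PyMT tumors was measured on 3 two-color arrays of 1 slide. The authors deposited median spot and background intensity per dye, read with Agilent Feature Extraction 10.7.3.1, and the software's processed intensity with its log10 ratio of Cy5 over Cy3. They also deposited normalized log2 ratios, with column medians of 0.00329, 0.000361 and 0.000888. The methods describe log2 ratios of condition over control, and the file itself states no direction. Set against the scanner values, the columns were Cy5 over Cy3 (Pearson's r across spots of 0.885, 0.874 and 0.880). In R 4.3.3 with limma 3.58.1, median intensities were corrected with normexp (offset 50), normalized by intensity loess (span 0.3), spatial loess (span 0.1) and Aquantile, and turned to RL over control. Control and outlier spots were left out. Probes well above background in the 3 control channels, or in the 3 RL channels, were used, with the brightest standing for its gene. The RefSeq table (GRCm38.p6) named 28026 of 55681 probes. Ratios were fitted with lmFit and eBayes with Benjamini-Hochberg adjustment (threshold 0.05). RankProd was not at hand, so a rank product with a gamma approximation served as an alternative. The ratio pairs the cultures of a tumor, as the labels do. Genes were named from the lists: those past the threshold, the highest and lowest mean, and some of known role in the pump or ionocytes. The members and lists were chosen with earlier results of these data known. Programs were tested on simulated data.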

Additional observations from a re-analysis of the deposited data

How the results depend on the processing

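Over 18 alternatives, Foxi1 kept a negative log2 ratio, from −0.96 (median centering in place of loess) to −0.73, as did the 7 subunits named with it. With 1 probe, its value could not change where only the filter, the averaging of probes or the variance model differed. With a tumor left out, a mean of negative ratios cannot change sign. Nothing about Foxi1 is read from this range, which rests on the values that chose it. Where the median of all genes shifted by −0.11, with median centering, the V-ATPase median was −0.26, 2 of the 10 genes, 1 subunit and 3.42% of all genes lay below 0 in every tumor, and Cftr was −0.0662. Cftr was also negative with a dye term (−0.0194) and lay between −0.0947 and 0.0559 with a tumor left out. The V-ATPase median was −0.11 with the processed signals and −0.125 to −0.0943 with a tumor left out.

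Genes called over the array (6) were 0 with processed signals, with median centering and with no replicate block, which drops the pairing by tumor (limma, with 1661, 23 and 64 at an unadjusted p under 0.05). They were 18 without background correction, 14 at a normexp offset of 10, 3 without the filter and 3 with the strict filter, 30 with an intensity trend, 75 by rank product and 283 with a dye term. Among the 10 genes (1 called, Foxi1), these gave 0 with processed signals, median centering and no replicate block, 2 without background correction, with a trend and by rank product, 3 with a dye term and 7 at an unadjusted p. Foxi1, selected on its ratio, is 1 of every such count above 0, so they support nothing about it. Of subunits (0 called), 1, 1 and 1 were called without background correction, with a trend and by rank product, and 2 with a dye term. With a tumor left out, the array gave 1 to 1480 calls, the 10 genes 0 to 5 and the subunits 0 to 4. The highest counts came without tumor 2, which leaves arrays of 1 dye order. The causes were not tested. Of 879 values of 49 other genes, 32 had the opposite sign, as had 11 of 306 list medians.

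The offset compresses ratios of dim genes such as Cftr, and 3 arrays with RL in Cy3 on 2 of them limit precision.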

Other observations

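Genes of acid and base transport outside the pump were also measured. Of 17 carbonic anhydrase, bicarbonate, proton and monocarboxylate transport genes, 15 were tested, with a median log2 ratio of RL over control of −0.05, and 0 passed limma's adjusted p of 0.05 (at an unadjusted p under 0.05, 1 was higher and 1 lower, as 3.58% of all genes were lower, and the rank product called none). The lowest was Car12, a carbonic anhydrase on the outer cell surface, with −0.68, −0.34 and −0.28 in tumors 1, 2 and 3. Its mean was −0.43 (SE 0.09, adjusted p = 0.26 from limma), or −0.41 with a dye term. The highest was Car13, a cytosolic carbonic anhydrase, with 0.38, 0.08 and 0.12.

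Of 12 epithelial salt transport genes, 11 were tested, with a median of −0.06 and 0 called by limma (1 higher and 1 lower at an unadjusted p under 0.05, where 3.58% of all genes were lower, and 0 by rank product). Scnn1a, the alpha subunit of the epithelial sodium channel, had the lowest mean, −0.30, with −0.50, −0.14 and −0.28. Slc12a2, the sodium, potassium and chloride cotransporter that loads secretory cells with chloride, had the highest, with 0.15, 0.16 and 0.18 and a mean of 0.16 (SE 0.07, adjusted p = 0.687 from limma).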
